A study of Homo sapiens with 6 samples.

Results

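Glycolysis and the hypoxia response were followed through 36 genes in SW480 colorectal cancer cells after knockdown of the splicing factor RBM39. The rule that chose them names genes by their known roles. It uses no measured value, but the genes were chosen with earlier results of these data known. All 36 were present among the 56303 gene symbols of the count table. They were grouped by role into 4 genes of glucose uptake and lactate export, 9 of upper glycolysis, 8 of lower glycolysis and lactate formation, 3 regulators of flux, 4 of oxygen sensing and 8 effectors that low oxygen is known to induce.

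SW480 is an established line from a human colon adenocarcinoma. Both groups carried a lentiviral short hairpin RNA and had been selected with puromycin as stable clonal lines: shCtrl cells (genotype given as WT) carried a control hairpin and shRBM39 cells a hairpin against RBM39. Each group had 3 libraries of poly(A) RNA from 3 repeats of the experiment, and no source used here says whether a group came from more than 1 clone, so p-values measure the spread between these libraries. The cells were kept in serum-containing medium in a humidified incubator, and no hypoxic treatment is given for either group.

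Glycolysis splits glucose into pyruvate in the cytosol and yields ATP without oxygen. Tumour cells often run it at a high rate in air and release the pyruvate as lactate. When oxygen falls, the prolyl hydroxylases of the EGLN family no longer mark the alpha subunits of hypoxia-inducible factor (HIF) for destruction, and HIF then binds short elements with the core letters ACGTG or GCGTG and raises the transcription of glucose transporters, most glycolytic enzymes, pyruvate dehydrogenase kinase, VEGFA, CA9 and the EGLN genes themselves. HIF1A and EPAS1 encode the best known alpha subunits.

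Total gene counts ran from 18042924 to 20428901 per library, and the 36 genes together took 1.03% to 1.10% of them. RBM39 was at 441, 448 and 435 CPM (a unit in which counts are scaled to library size with a correction for composition) in shCtrl and at 266, 276 and 292 CPM in shRBM39, a log2 fold change of -0.67 (SE 0.04, edgeR quasi-likelihood adjusted p = 1.24e-16), so that 63.0% of its RNA remained. Of 8 markers of colon epithelium, 6 were above 1 CPM in every library, with KRT20 and CDH17 low, and the summed level of the 8 ran from 11635 to 12462 CPM in shCtrl and from 14707 to 15280 CPM in shRBM39. That sum is mostly KRT8, which rose (log2 fold change 0.43), while CDX2 (432 to 476 counts in shCtrl and 80 to 109 in shRBM39, log2 fold change -2.13), CDH17 (51 to 61 and 19 to 21 counts, -1.34) and VIL1 (-0.09) fell. Their part in the results was not tested. The summed levels of 5 fibroblast markers (10.0 to 11.1 CPM against 14.0 to 14.6), 5 leukocyte markers (15.7 to 17.0 against 16.3 to 17.7) and 3 endothelial markers (3.47 to 4.58 against 6.45 to 7.96) were low in both groups, and the leukocyte marker PTPRC had 0 counts in each library. In these bulk libraries, a lower share of cells that use a gene and less RNA per cell cannot be told apart.

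The letters ACGTG and GCGTG were searched on both strands of the RefSeq promoter windows of build GRCh38.p14. A window holds 250 bases before and 50 bases after a start listed for a gene. For the 36 genes and the genes tested, the first window listed for a gene was used, which need not lie at its outermost start. The share over all windows counts every window. Windows were matched for 31 of the 36 genes (not for SLC2A3, SLC16A1, VEGFA, BNIP3L and NDRG1). ACGTG stood in 13 of the 31 windows (41.9%), against 21.4% of all 35116 windows and 26.7% of the 10702 windows of genes tested. GCGTG stood in 15 of the 31 (48.4%), against 36.5% of all windows and 50.3% of those of genes tested. CACGTG holds ACGTG on both strands. By call, ACGTG stood in 7 of 15 windows of genes that fell after knockdown and in 4 of 12 windows of genes that rose. The 250 bases before the listed start are given for 4 genes that fell (CA9, P4HA1, ANKRD37 and HK2) and for LDHA. LDHA rose and has the motif at several places. All were picked as examples with a match. Among others, EGLN3 and PDK1, which fell, and TPI1 and PGAM1, which rose, had neither motif in their windows. The part of these letters in the changes was not tested. Each runs 5′ to 3′ on the gene's strand, and capitals mark ACGTG or GCGTG on either strand.
CA9 (chr9:35673678-35673927, plus strand): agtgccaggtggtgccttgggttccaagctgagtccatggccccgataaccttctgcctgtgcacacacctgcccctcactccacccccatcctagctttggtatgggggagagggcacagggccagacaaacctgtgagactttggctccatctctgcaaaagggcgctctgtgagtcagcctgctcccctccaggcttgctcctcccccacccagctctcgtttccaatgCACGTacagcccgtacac
P4HA1 (chr10:73096867-73097116, minus strand): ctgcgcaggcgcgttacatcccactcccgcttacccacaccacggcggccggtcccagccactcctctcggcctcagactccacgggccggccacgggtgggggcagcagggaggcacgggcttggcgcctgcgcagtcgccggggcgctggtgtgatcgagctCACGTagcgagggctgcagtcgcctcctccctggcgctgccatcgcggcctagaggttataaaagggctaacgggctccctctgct
ANKRD37 (chr4:185396591-185396840, plus strand): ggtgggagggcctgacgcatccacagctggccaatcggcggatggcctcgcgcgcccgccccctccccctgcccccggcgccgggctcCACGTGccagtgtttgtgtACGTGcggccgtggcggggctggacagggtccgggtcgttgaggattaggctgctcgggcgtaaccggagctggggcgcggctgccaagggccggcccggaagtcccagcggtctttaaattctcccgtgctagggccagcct
HK2 (chr2:74833877-74834126, plus strand): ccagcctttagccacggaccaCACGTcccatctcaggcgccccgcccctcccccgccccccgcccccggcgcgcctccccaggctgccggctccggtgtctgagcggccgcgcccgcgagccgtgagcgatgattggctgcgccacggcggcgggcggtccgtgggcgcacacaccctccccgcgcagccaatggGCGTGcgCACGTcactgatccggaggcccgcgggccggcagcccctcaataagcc
LDHA (chr11:18394313-18394562, plus strand): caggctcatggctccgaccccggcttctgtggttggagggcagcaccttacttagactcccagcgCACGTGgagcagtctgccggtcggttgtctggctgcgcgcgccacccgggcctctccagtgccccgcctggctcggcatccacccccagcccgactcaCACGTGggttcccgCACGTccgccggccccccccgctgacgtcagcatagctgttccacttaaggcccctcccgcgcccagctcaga
A match describes these letters only. It does not show that a factor was bound in SW480 cells.

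The first comparison asked how the 36 genes differed between shRBM39 and shCtrl. All 36 passed the filter on low counts, EPAS1 only through its higher values in the shRBM39 libraries, and 31 passed an adjusted p of 0.05, 12 of them up-regulated and 19 down-regulated. Knockdown changed much of the transcriptome: 59.1% of the 18243 genes tested passed the same threshold, 29.2% higher and 29.9% lower. The share of lower genes among the 36 was 52.8%. At least 2-fold lower were 7 of the 36 (VEGFA, EGLN3, NDRG1, PDK1, P4HA1, HK2 and CA9), against 4.16% of all genes tested, and 0 were at least 2-fold higher, against 2.36%. The median log2 fold change was -0.19 for the 36 genes and -0.01 for all genes tested. The CPM values of the groups did not overlap for 29 of the 36, against 63.3% of all genes tested. With library totals as the sole scaling, the median of all genes tested moved to -0.14 and the split of the members became 9 higher and 22 lower, while higher genes made up 33.9% of all calls in place of 49.4%.

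**Figure D1:**
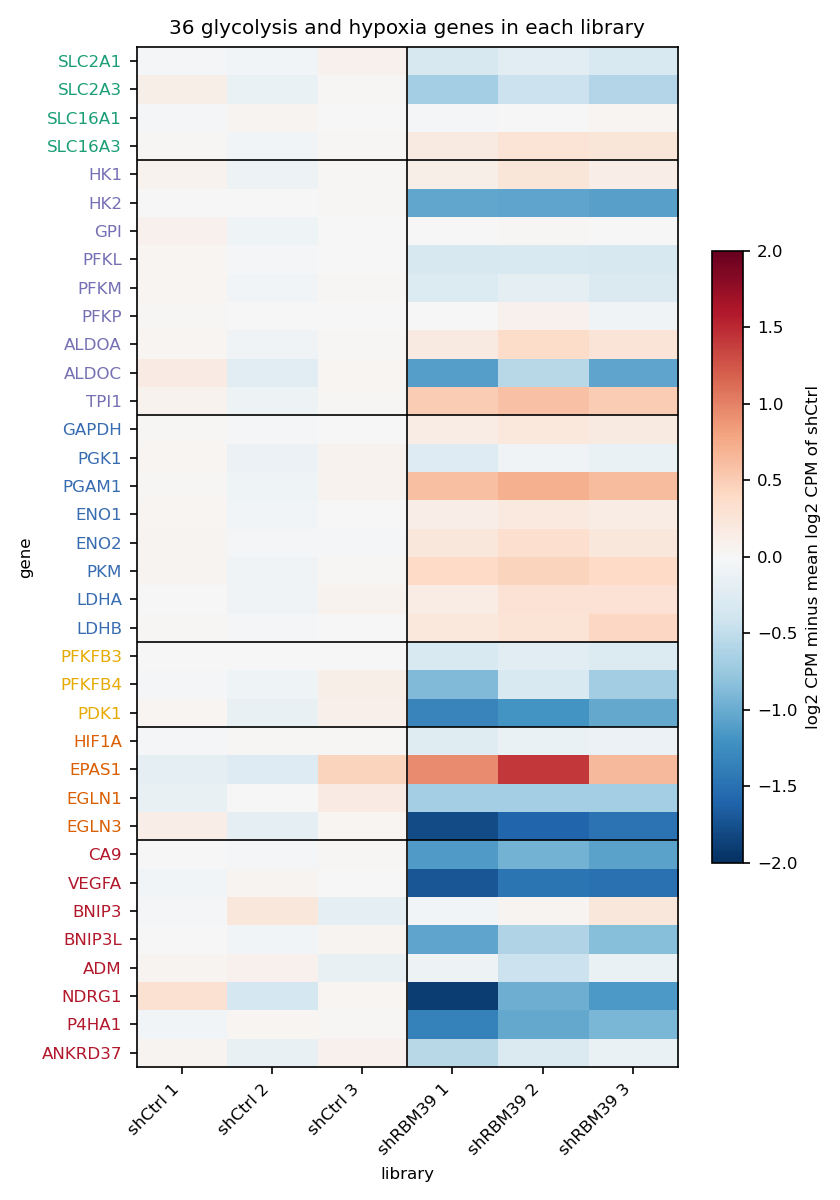
Level of each of the 36 genes in each of the 6 libraries, as log2 of CPM over the gene's mean in shCtrl, with genes in rows by role and libraries in columns. VEGFA, EGLN3 and the other strongly lowered genes are low in all 3 shRBM39 columns, and most rows of lower glycolysis are raised in all 3.

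The direction differed by role. Among all genes tested, 29.2% were called higher and 29.9% lower. In lower glycolysis and lactate formation 7 of 8 genes rose and 1 fell (median log2 fold change 0.25), whereas 6 of the 8 hypoxia-induced effectors fell and 0 rose (median -0.94). The 3 regulators of flux fell (median -0.62), as did 3 of the 4 genes of oxygen sensing (median -0.42). Upper glycolysis was split, with 3 genes higher and 4 lower (median 0.01), and so were transporters, with 1 higher and 2 lower (median -0.14). Over the 17 genes that encode glycolytic enzymes, lactate dehydrogenases included, 10 rose and 5 fell, with a median of 0.16. The rises depend in part on scaling: with library totals as the sole scaling, those of GAPDH, ENO1 and HK1 no longer passed.

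**Figure D2:**
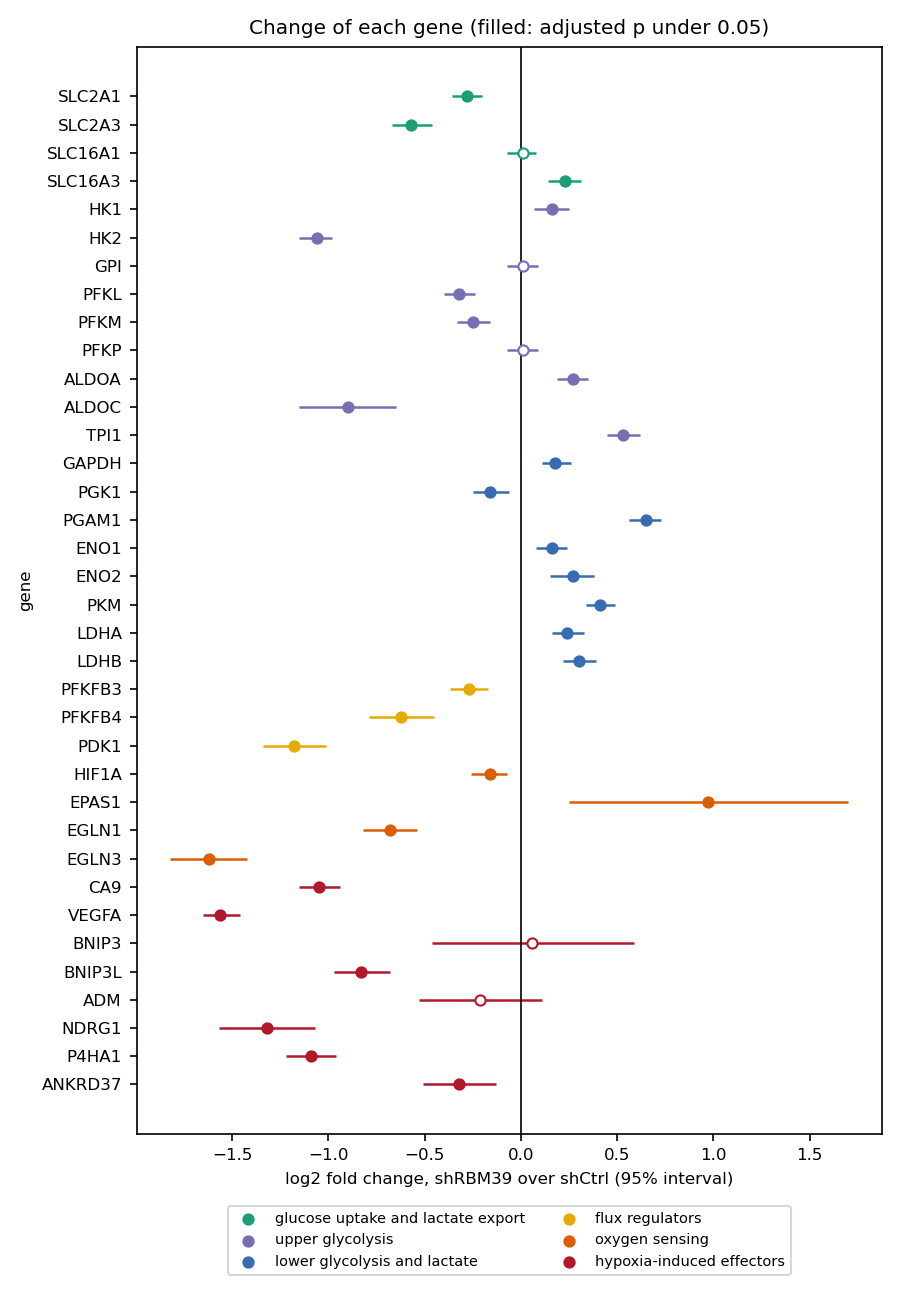
Log2 fold change of each of the 36 genes, shRBM39 over shCtrl, with its 95% interval; colours give the role and filled points passed an adjusted p of 0.05. The blue points of lower glycolysis lie between -0.16 (PGK1) and 0.65 (PGAM1), and the dark red points of the hypoxia-induced effectors between -1.56 (VEGFA) and 0.06 (BNIP3).

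VEGFA, which encodes the main growth factor for blood vessels, had the lowest adjusted p of the 36 genes. It lies on chromosome 6 from 43770184 to 43786487 on the plus strand (GRCh38). VEGFA was at 226, 244 and 232 CPM in shCtrl and at 71.2, 84.7 and 83.3 CPM in shRBM39. Each knockdown library thus lay far below each control library, and the log2 fold change was -1.56 (SE 0.05, edgeR adjusted p = 6.15e-24), or 66.0% lower. A gene on the opposite strand that shares 188 bases with VEGFA, RP1-261G23.7, moved with it and had 997 to 1166 counts in shCtrl and 233 to 296 counts in shRBM39. The kit marks strand, but the strand setting used for counting is not given in the sources used here, so reads in shared stretches may belong to either gene.

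CA9 encodes a carbonic anhydrase at the cell surface that helps cells export acid. It lies on chromosome 9 from 35673856 to 35681159 (plus strand), and its promoter stretch above holds ACGTG just before the start. CA9 was at 60.6, 59.2 and 61.8 CPM in shCtrl and at 27.6, 31.5 and 28.9 CPM in shRBM39, with no overlap. It fell by 1.05 on the log2 scale (SE 0.05, edgeR adjusted p = 1.81e-18). ARHGEF39 on the opposite strand shares 38.5% of the merged exon length of CA9 and had 905 to 927 counts in shCtrl and 603 to 666 in shRBM39. The part of shared reads in the CA9 difference was not tested.

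P4HA1, a catalytic subunit of the prolyl hydroxylase that collagen needs for its triple helix, lies on chromosome 10 from 73007217 to 73096974 (minus strand). It was at 68.2, 72.7 and 72.2 CPM in shCtrl and at 27.7, 34.9 and 37.6 CPM in shRBM39. The knockdown libraries spread more than the controls but stayed well apart from them, with a log2 fold change of -1.09 (SE 0.06, edgeR adjusted p = 1.01e-16). RP11-344N10.2 on the opposite strand shares 47 bases with P4HA1 and had 359 to 395 counts in shCtrl and 135 to 204 in shRBM39. NDRG1, a stress-responsive gene, varied more between replicates than VEGFA, CA9 and P4HA1, with 49.1, 31.1 and 40.9 CPM in shCtrl and 10.7, 20.2 and 17.9 CPM in shRBM39. Its lowest control still exceeded its highest knockdown library, and the fold change was -1.32 (log2, SE 0.12, edgeR adjusted p = 3.24e-11).

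BNIP3L encodes a receptor for the removal of mitochondria by autophagy. It was at 34.8, 33.7 and 36.3 CPM in shCtrl and at 16.9, 23.1 and 19.3 CPM in shRBM39, a log2 fold change of -0.83 (SE 0.07, edgeR adjusted p = 3.58e-12). Its relative BNIP3 was near the limit of detection, with 18 to 25 counts in each library, and differed by 0.06 (95% interval -0.46 to 0.59). Reads listed under 39 BNIP3 pseudogenes made up as much as 57.1% of the counts of BNIP3 and those copies together, so the BNIP3 level is uncertain. ADM, which encodes the vasodilator adrenomedullin, was at 2.95 to 3.49 CPM in shCtrl and at 2.44 to 3.06 CPM in shRBM39. The groups overlapped, and the difference of -0.21 did not pass the test (95% interval -0.53 to 0.11, edgeR adjusted p = 0.264). It was -0.11 without shRBM39 replicate 2, and passed narrowly on log2(RPKM + 1) (-0.18, limma adjusted p = 0.0468).

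ANKRD37, an ankyrin-repeat gene whose promoter holds CACGTG, was at 13.3, 11.6 and 13.6 CPM in shCtrl and at 8.68, 10.5 and 11.7 CPM in shRBM39. The highest knockdown library reached the lowest control, and the log2 fold change of -0.32 (SE 0.09, edgeR adjusted p = 0.00406) became -0.20 without shRBM39 replicate 1 (adjusted p = 0.0765). UFSP2 on the opposite strand shares 35.2% of the merged exon length of ANKRD37. UFSP2 had 327 to 349 counts in shCtrl and 245 to 323 in shRBM39, and ANKRD37 had 247 to 276 and 170 to 226. The part of shared reads in the ANKRD37 difference was not tested.

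Among the genes of oxygen sensing, EGLN3, the most strongly HIF-induced of the prolyl hydroxylases in many cells, had the lowest log2 fold change of the 36 genes. It lies on chromosome 14 from 33924231 to 34462774 (minus strand). EGLN3 was at 19.6, 15.8 and 18.4 CPM in shCtrl and at 5.16, 5.98 and 6.40 CPM in shRBM39, a log2 fold change of -1.62 (SE 0.10, edgeR adjusted p = 5.12e-16). EGLN1, the main oxygen sensor of this family, was at 28.8, 31.7 and 35.6 CPM in shCtrl and at 20.0, 19.9 and 20.0 CPM in shRBM39. It fell by 0.68 (log2, SE 0.07, edgeR adjusted p = 1.03e-10). Both hydroxylase genes were therefore lower in each knockdown library than in any control.

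The change of HIF1A itself was small. HIF1A was at 61.3, 64.3 and 64.2 CPM in shCtrl and at 53.6, 57.6 and 58.5 CPM in shRBM39, which did not overlap, and its log2 fold change was -0.16 (SE 0.05, edgeR adjusted p = 0.00295), or 10.6% lower. EPAS1, which encodes the HIF-2 alpha subunit, was barely detected, with 7, 7 and 11 counts in shCtrl and 15, 18 and 12 in shRBM39. Its log2 fold change of 0.97 (SE 0.36, edgeR adjusted p = 0.0184) rests on these few counts, and the filter on low counts kept the gene only because of its shRBM39 values. Without shCtrl replicate 1, shCtrl replicate 2 or shRBM39 replicate 2 in turn it was 0.88, 0.84 and 0.77 and no longer passed (edgeR adjusted p = 0.0661, 0.0753 and 0.107). RNA levels do not show HIF protein, which is set mainly by its stability.

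Each of the 3 regulators of flux among the 36 genes fell. PDK1 encodes a kinase that inactivates pyruvate dehydrogenase, and lies on chromosome 2 from 172555373 to 172608669 (plus strand). It was at 25.6, 22.6 and 26.9 CPM in shCtrl and at 9.95, 10.9 and 12.3 CPM in shRBM39, a log2 fold change of -1.18 (SE 0.08, edgeR adjusted p = 1.23e-14). AC093818.1 on the opposite strand shares 445 bases with PDK1 and had 371 to 439 counts in shCtrl and 278 to 316 in shRBM39. PDK1 itself had 479 to 547 and 187 to 238 counts. The part of shared reads in its difference was not tested. PFKFB3 and PFKFB4 make fructose-2,6-bisphosphate, the activator of phosphofructokinase. PFKFB4 was at 26.8, 25.6 and 29.5 CPM in shCtrl and at 14.8, 22.0 and 16.9 CPM in shRBM39 (log2 fold change -0.62, SE 0.09, edgeR adjusted p = 1.18e-07). PFKFB3 ranged from 44.8 to 45.2 CPM in shCtrl and from 36.3 to 38.5 CPM in shRBM39 (log2 fold change -0.27, SE 0.05, edgeR adjusted p = 1.6e-05). Neither gene overlapped between groups. Related genes outside the 36 did not all fall. PDK3 (log2 fold change 0.88) and the fructose-2,6-bisphosphatase TIGAR (0.54) rose, and PFKFB1 (-1.22), with few counts, fell. PDK2, PDK4 and PFKFB2 did not pass the test.

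At the entry of glucose, both transporter genes fell. SLC2A1, the ubiquitous transporter GLUT1, was at 622, 616 and 679 CPM in shCtrl and at 512, 549 and 516 CPM in shRBM39 (log2 fold change -0.28, SE 0.04, edgeR adjusted p = 2.67e-07). SLC2A3, the high-affinity transporter GLUT3, was at 133, 112 and 125 CPM in shCtrl and at 76.9, 90.9 and 82.1 CPM in shRBM39, a log2 fold change of -0.57 (SE 0.05, edgeR adjusted p = 2.28e-11), with no more than 8.06% of counts listed under its pseudogenes. The lactate exporter SLC16A3 (MCT4) rose (log2 fold change 0.23, SE 0.04, edgeR adjusted p = 2e-05), with 82.4 to 87.0 CPM in shCtrl and 96.2 to 103 CPM in shRBM39, but did not pass on log2(RPKM + 1) (0.09, limma adjusted p = 0.0709). SLC16A1 (MCT1) did not pass the test, with a difference of 0.01 (95% interval -0.07 to 0.08) that became -0.12, a lower call, with library totals as the sole scaling (edgeR adjusted p = 0.00798).

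In upper glycolysis, the 2 hexokinase genes moved in opposite directions. HK2, the hexokinase that tumours commonly induce, lies on chromosome 2 from 74833981 to 74893359 (plus strand). HK2 was at 117, 117 and 119 CPM in shCtrl and at 57.1, 56.6 and 55.6 CPM in shRBM39, and fell by 1.06 on the log2 scale (SE 0.04, edgeR adjusted p = 3.75e-21). The replicates were tight and the groups far apart. HK1, the housekeeping hexokinase, was at 172, 153 and 167 CPM in shCtrl and at 177, 193 and 179 CPM in shRBM39 (log2 fold change 0.16, SE 0.04, edgeR adjusted p = 0.0017), but was 0.04 and no longer passed with library totals as the sole scaling (edgeR adjusted p = 0.469).

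The genes of phosphofructokinase, the committed step, did not move together. PFKL, the liver form, was at 99.4 to 104 CPM in shCtrl and 80.9 to 81.8 CPM in shRBM39 (log2 fold change -0.32, SE 0.04), and PFKM, the muscle form, was at 111 to 118 CPM against 94.5 to 102 CPM (-0.25, SE 0.04). PFKP, the platelet form, did not pass, with a difference of 0.01 (95% interval -0.07 to 0.09). GPI, which makes fructose-6-phosphate, did not pass either (0.01, 95% interval -0.07 to 0.09). Library totals as the sole scaling turned both of these to lower calls (PFKP -0.12, GPI -0.11).

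Aldolase genes moved in opposite directions. ALDOA, the main form, was at 257 to 277 CPM in shCtrl and at 306 to 345 CPM in shRBM39, and rose by 0.27 (log2, SE 0.04, edgeR adjusted p = 8.31e-07). ALDOC, the brain form, was at 8.15 to 10.6 CPM in shCtrl and at 4.39 to 6.45 CPM in shRBM39, and fell by 0.90 (log2, SE 0.12, edgeR adjusted p = 1.46e-07). RP11-192H23.5 on the opposite strand shares 10.1% of the merged exon length of ALDOC. It had 28 to 36 counts in shCtrl and 13 to 25 in shRBM39, against 173 to 214 and 86 to 111 for ALDOC. TPI1, which interconverts the triose phosphates, lies on chromosome 12 from 6867119 to 6870948 (plus strand). It was at 733, 653 and 713 CPM in shCtrl and at 995, 1046 and 994 CPM in shRBM39, a log2 fold change of 0.53 (SE 0.04, edgeR adjusted p = 1.57e-13), or 44.7% higher.

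PGAM1, phosphoglycerate mutase, rose most among the genes of lower glycolysis. It lies on chromosome 10 from 97426160 to 97433441 (plus strand). PGAM1 was at 125, 116 and 130 CPM in shCtrl and at 188, 202 and 192 CPM in shRBM39, a log2 fold change of 0.65 (SE 0.04, edgeR adjusted p = 2.7e-15), or 56.5% higher. Pyruvate kinase PKM, on chromosome 15 from 72199029 to 72231822 (minus strand), was at 1325, 1226 and 1297 CPM in shCtrl and at 1684, 1753 and 1690 CPM in shRBM39 (log2 fold change 0.41, SE 0.04, edgeR adjusted p = 1.46e-11). For both genes each knockdown library lay above each control. The gene counts do not separate the M1 and M2 forms of PKM.

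The lactate dehydrogenase genes LDHA and LDHB rose by similar amounts. LDHA was at 690, 655 and 719 CPM in shCtrl and at 766, 842 and 836 CPM in shRBM39 (log2 fold change 0.24, SE 0.04, edgeR adjusted p = 4.09e-06). LDHB was at 810, 784 and 799 CPM in shCtrl and at 924, 965 and 1065 CPM in shRBM39 (0.30, SE 0.04, edgeR adjusted p = 1.04e-07). The enolase genes rose as well, ENO1 by 0.16 (SE 0.04) and the neuronal form ENO2 by 0.27 (SE 0.06). GAPDH, the glyceraldehyde-3-phosphate dehydrogenase often used as a reference gene, was at 2134, 2050 and 2103 CPM in shCtrl and at 2315, 2434 and 2383 CPM in shRBM39 (0.18, SE 0.04, edgeR adjusted p = 5.75e-05). The increases of GAPDH and ENO1 became 0.06 and 0.04 with library totals as the sole scaling and then did not pass, and that of LDHA became 0.12 on log2(RPKM + 1) (limma adjusted p = 0.0619). A gene on the opposite strand, RP5-940J5.9, shares 422 bases with GAPDH and had 13752 to 14837 counts in each library.

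PGK1, phosphoglycerate kinase, was the exception in lower glycolysis. PGK1 was at 412, 369 and 418 CPM in shCtrl and at 334, 381 and 362 CPM in shRBM39. The groups overlapped, and the log2 fold change of -0.16 (SE 0.04, edgeR adjusted p = 0.00329) became -0.10 without shRBM39 replicate 1 (edgeR adjusted p = 0.0586) and had an adjusted p of 0.109 in DESeq2.

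Within the knockdown group, the libraries kept an order over these genes. Replicate 1 was the lowest of the 3 shRBM39 libraries for 16 of the 19 members that fell (84.2%), against 35.9% of all genes that fell. Replicate 2 was the highest for 11 of the 12 members that rose (91.7%), against 33.2% of all genes that rose. RBM39 itself was at 266, 276 and 292 CPM in replicates 1, 2 and 3. Mitochondrial genes took 8.22%, 7.52% and 7.33% of their counts, against 6.90% to 7.28% in shCtrl, and replicates 1 and 3 differed most beyond sampling noise (chi-square per degree of freedom 4.16). The part of these measures in the order was not tested. No test was made of this order, which rests on 3 libraries. Leaving out replicate 1 gave 29 members called in place of 31, and 10195 of all genes in place of 10790.

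**Figure D3:**
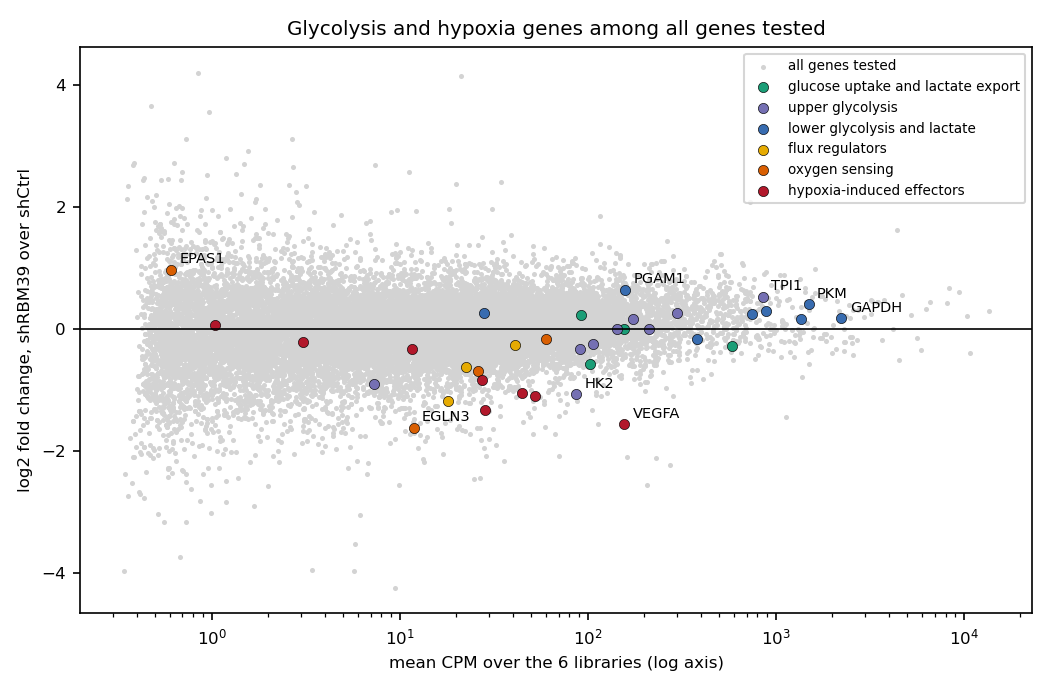
Log2 fold change (shRBM39 over shCtrl) against mean CPM on a log axis for the 18243 genes tested (grey) and the 36 genes (coloured by role). The abundant enzymes PKM (0.41) and GAPDH (0.18) lie above 0 at the right, and VEGFA (-1.56), EGLN3 (-1.62) and HK2 (-1.06) lie low in the cloud.

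Levels were compared between genes per length, as RPKM, counts divided by the length of the merged exons and by the library total. The order therefore depends on the merged length of all annotated exons. That length was 8571 bases for PKM and 2700 for TPI1, and 6210 for LDHA and 2983 for LDHB. By mean CPM in shCtrl, PKM (1283) was above TPI1 (699), and LDHA (688) was nearer to LDHB (798). In shCtrl the order ran from GAPDH at 733 ± 9.47 RPKM (mean ± SD, n = 3) through ENO1 (341 ± 8.73), LDHB (279 ± 2.38), TPI1 (270 ± 14.2) and PKM (156 ± 5.08) to SLC2A1 (135 ± 7.70), LDHA (115 ± 5.30) and PGK1 (76.9 ± 4.79). Among these, LDHB and TPI1 overlapped between libraries and the other neighbours in the order did not. At the low end stood ADM (1.26 ± 0.110 RPKM), BNIP3 (0.199 ± 0.0297) and EPAS1 (0.0580 ± 0.0169), none of which overlapped with its neighbour.

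The down-regulated genes differed widely in level. CA9 (37.8 ± 0.800 RPKM in shCtrl), P4HA1 (23.9 ± 1.04), HK2 (20.3 ± 0.330) and VEGFA (16.9 ± 0.797) were in the middle of the range, whereas EGLN3 (2.54 ± 0.251) and PDK1 (1.75 ± 0.151) were near its bottom. The low place of PDK1 rests on its merged exon length of 14883 bases. By mean CPM in shCtrl, PDK1 (25.0) was above EGLN3 (17.9). In shRBM39, TPI1 at 358 ± 9.70 RPKM reached ENO1 at 350 ± 7.79 RPKM, and CA9 was at 16.8 ± 1.11 RPKM. RPKM uses library totals, so its differences between groups carry the shift given above.

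**Figure D4:**
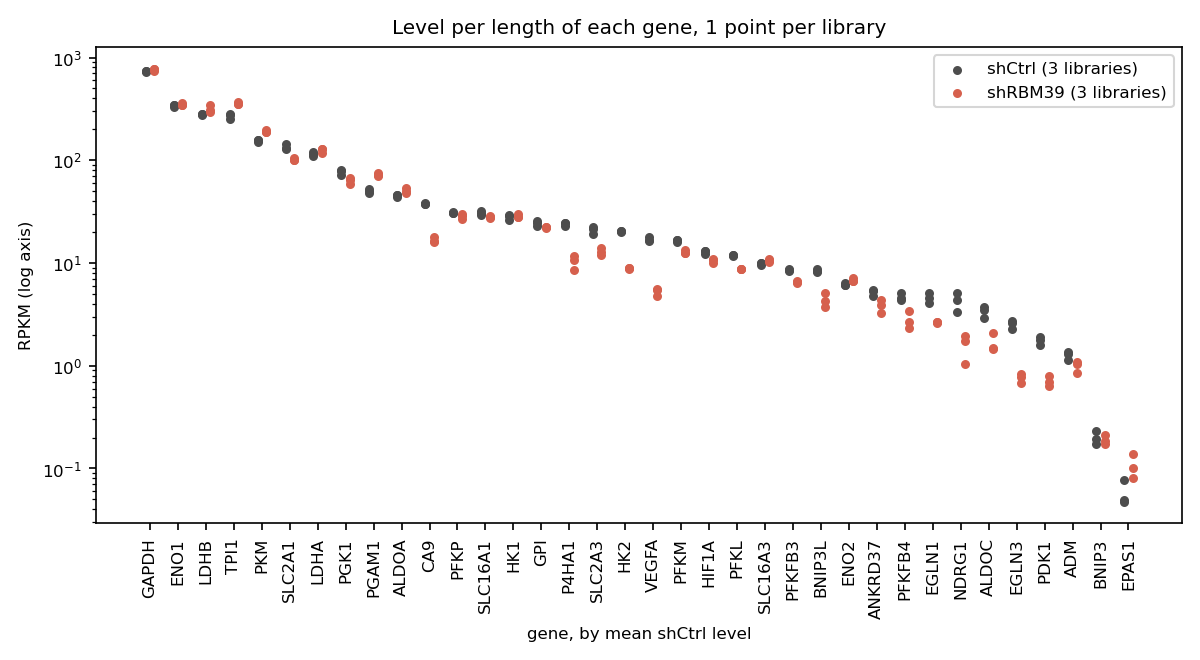
RPKM of each of the 36 genes in each library on a log axis, with shCtrl in grey and shRBM39 in red, genes ordered by their mean in shCtrl. Levels run from 733 RPKM for GAPDH to 0.0580 RPKM for EPAS1, and the red points of CA9, P4HA1, HK2 and VEGFA lie below the grey ones without overlap.

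The next comparison asked whether related genes shifted against each other. The ratio of 2 genes within a library does not depend on how libraries are scaled. For 12 pairs the log2 ratio of RPKM was compared by an exact two-sided permutation test, whose smallest possible p with 3 against 3 libraries is 0.1, so that no pair could reach 0.05. HK1 made up 58.1% ± 1.42 (SD, n = 3) of the summed RPKM of HK1 and HK2 in shCtrl and 76.4% ± 0.865 in shRBM39. The log2 ratio of HK1 to HK2 was 0.55, 0.38 and 0.48 in shCtrl and 1.63, 1.77 and 1.69 in shRBM39, a difference of 1.22 (exact permutation p = 0.1, Benjamini-Hochberg adjusted over the 12 pairs 0.12).

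The other ratios gave the same p of 0.1 where the groups did not overlap. ALDOA over ALDOC rose by 1.17 on the log2 scale, EGLN1 over EGLN3 by 0.94 and BNIP3 over BNIP3L by 0.91, the last with the few BNIP3 counts. SLC2A1 over SLC2A3 differed by 0.29, SLC16A1 over SLC16A3 by -0.22 and ENO1 over ENO2 by -0.11. HIF1A over EPAS1 differed by -1.16, with the few EPAS1 counts. Among the phosphofructokinases, PFKL over PFKP differed by -0.33 and PFKM over PFKP by -0.25, and PFKP went from 52.2% ± 0.559 of their summed RPKM in shCtrl to 57.1% ± 0.729 in shRBM39. The size of this share depends on the merged exon lengths, 8926 bases for PFKL, 7284 for PFKM and 4836 for PFKP. Mean CPM in shCtrl was 102, 115 and 144 in that order. LDHA over LDHB (-0.06, exact permutation p = 0.4) and PFKFB3 over PFKFB4 (0.36, exact permutation p = 0.2) overlapped between groups.

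**Figure D5:**
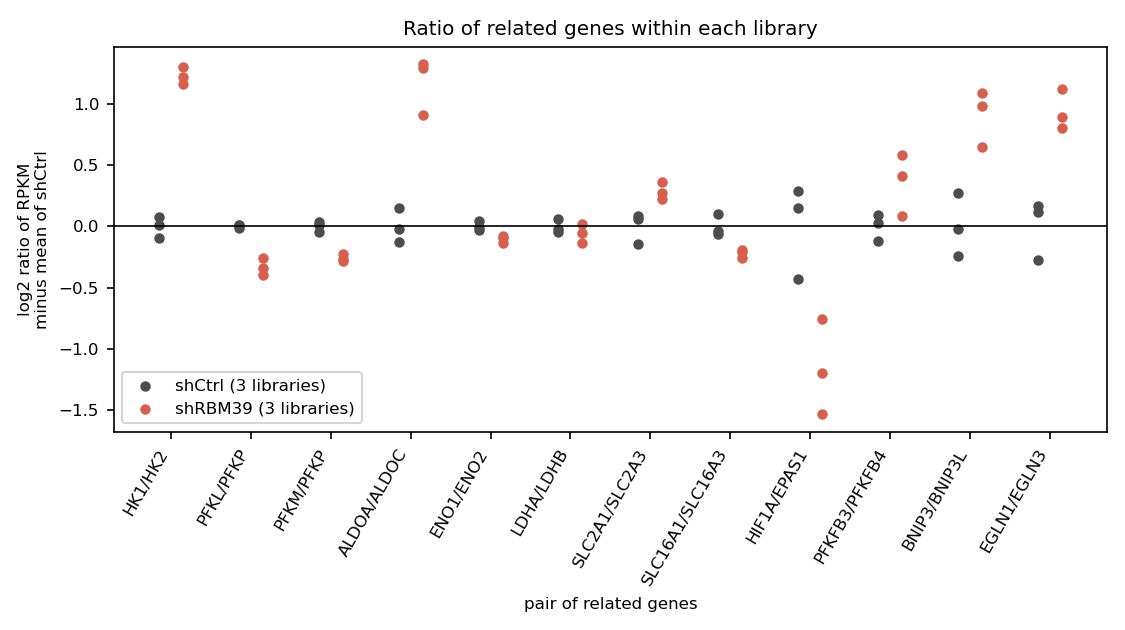
Log2 ratio of RPKM for 12 pairs of related genes minus the pair's mean in shCtrl, 1 point per library, with shCtrl in grey and shRBM39 in red. Before that mean is taken off, the HK1/HK2 ratio was 0.38 to 0.55 in shCtrl and 1.63 to 1.77 in shRBM39. The red HK1/HK2 points lie above the grey ones, and LDHA/LDHB overlaps.

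Other genes of the same pathways were taken from 2 lists, also chosen with earlier results of these data known. Of 59 further genes of glucose metabolism, 49 had enough counts and 34 passed the test (69.4%, against 59.1% of all genes tested), 23 higher and 11 lower, with a median log2 fold change of 0.11. PFKFB1 was at 0.496 to 0.984 CPM in shCtrl and 0.155 to 0.408 CPM in shRBM39. SLC2A14 was at 1.04 to 1.33 CPM in shCtrl and 0.413 to 0.813 CPM in shRBM39. Both were called lower and passed the filter on low counts only through shCtrl. Genes that rose included PDK3, a second pyruvate dehydrogenase kinase, at 5.65 to 8.27 CPM in shCtrl and 11.4 to 13.6 CPM in shRBM39 (log2 fold change 0.88, SE 0.11, edgeR adjusted p = 8.14e-09). TIGAR (0.54, SE 0.07), a fructose-2,6-bisphosphatase, MPC1 (0.53, SE 0.10), part of the mitochondrial pyruvate carrier, and PGD (0.48, SE 0.04), of the pentose phosphate pathway, rose as well. The lowest value was that of PCK2, the mitochondrial phosphoenolpyruvate carboxykinase, at 87.9, 88.9 and 89.0 CPM in shCtrl and 25.8, 32.4 and 29.8 CPM in shRBM39 (-1.60, SE 0.05, edgeR adjusted p = 7.5e-23). MLXIPL, a glucose-responsive transcription factor also called ChREBP (-1.26, SE 0.08), the hexokinase-like HKDC1 (-0.98, SE 0.06) and the pentose phosphate enzyme PGLS (-0.95, SE 0.09) fell too.

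Of 50 further genes of the hypoxia response, 46 were tested and 33 passed (71.7%), 6 higher and 27 lower, with a median of -0.29. CXCR4 was at 0.377 to 0.492 CPM in shCtrl and 0.671 to 0.871 CPM in shRBM39. TMEM45A was at 0.295 to 0.848 CPM in shCtrl and 0.755 to 1.24 CPM in shRBM39. Both were called higher and passed the filter on low counts only through shRBM39. LOX (0.943 to 1.46 CPM in shCtrl, 0.413 to 0.664 CPM in shRBM39), called lower, passed it only through shCtrl. The lower share was 58.7% of the genes tested in the list, against 29.9% of all genes tested. DDIT4, an inhibitor of mTORC1, was at 383, 378 and 362 CPM in shCtrl and at 68.4, 105 and 87.5 CPM in shRBM39, or 76.8% lower (log2 fold change -2.11, SE 0.07, edgeR adjusted p = 4.79e-23). STC2, a secreted glycoprotein (-1.33, SE 0.05), the lipoprotein receptor VLDLR (-1.30, SE 0.11) and PPFIA4, a liprin (-1.11, SE 0.10), also fell. TFRC, the transferrin receptor, went the other way, with 94.8, 89.5 and 91.3 CPM in shCtrl and 215, 202 and 200 CPM in shRBM39 (1.16, SE 0.04, edgeR adjusted p = 1.37e-22). The rises of the prolyl hydroxylase EGLN2 (0.21, SE 0.05), the collagen hydroxylase subunit P4HA2 (0.18, SE 0.06) and the HIF inhibitor HIF1AN (0.12, SE 0.04) were small.

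The authors' list of differential splicing events was searched as another readout. None of its 1582 records (0 of 1582, under 1198 symbols) belonged to the 36 genes, while 4 belonged to the further glucose metabolism genes and 3 to the further hypoxia response genes. The list names 1198 symbols, against 18243 genes tested for expression, so few of any 36 genes would be in it at that share. The 0 is therefore not a result about these genes. That list holds only events its makers selected, so a gene missing from it may still have changed in splicing below their threshold.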

How the data were processed

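RNA-seq was analysed for 6 SW480 libraries, 3 shCtrl and 3 shRBM39. Per the submitters' processing notes, the authors used Trimmomatic 0.36, STAR 2.5.3a, featureCounts of Subread 1.5.1 and edgeR 3.12.1 with build GRCh38, and deposited whole-number read counts per gene symbol. The deposited RPKM values were recomputed from these counts and the merged exon lengths. The authors' list of splicing events holds their own selected comparisons, and only its gene symbols were counted here. Columns headed NC were read as shCtrl. Genes were filtered by filterByExpr, scaled by TMM and tested by edgeR 4.0.16 quasi-likelihood (R 4.3.3) on group alone, with Benjamini-Hochberg adjustment over the 18243 genes tested and a threshold of 0.05. The common biological coefficient of variation was 0.035. Depth was 18042924 to 20428901 counts per library. Replicates of a group differed by more than sampling noise (chi-square per degree of freedom 2.10 to 4.16). Ratios were tested by exact permutation in scipy 1.17.1, for which the design cannot give a p below 0.1. The fit was tested on simulated data. Alternatives were DESeq2 1.42.0, limma 3.58.1 on log2(RPKM + 1) and log2(RPKM + 0.1), other scalings and filters, a GC content and gene length correction (mgcv 1.9.3), a replicate block, stricter thresholds and leaving out each library. All members are named. From each further list the text names up to 4 genes that rose and 4 that fell, taken by size of change from those that passed the threshold, averaged 5 CPM or more and did not overlap between groups. The members and lists were chosen with earlier results of these data known.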

Additional observations from a re-analysis of the deposited data

How the results depend on the processing

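RBM39 was lower in each of the 18 alternatives. No member that passed in the main analysis changed direction in any of them, and 12 of the 36 kept their side of the threshold throughout. Testing against a log2 fold change of 0.5 left 2232 of the 18243 genes tested and 11 of the 36 members (1 higher and 10 lower). It left 8 of the 49 further glucose metabolism genes tested and 15 of the 46 further hypoxia response genes tested. In limma with a pseudocount of 1 or 0.1 on RPKM, 6 members were called higher in either fit, and the members' median was -0.27 and -0.30. With library totals alone that median was -0.31. These scalings moved the median of all genes tested to -0.08, -0.13 and -0.14, and the share of higher genes among all calls from 49.4% to 33.6%, 33.6% and 33.9%. Ratios on log2(RPKM + 1) were 1.14 for HK1/HK2, 0.86 for ALDOA/ALDOC, -0.33 for HIF1A/EPAS1 and 0.39 for EGLN1/EGLN3, since an added 1 shrinks a ratio. SLC16A1, GPI, PFKP and BNIP3, which did not pass, took negative values with library totals alone (-0.12, -0.11, -0.12 and -0.06), on log2(RPKM + 1) (-0.11, -0.11, -0.11 and -0.009) and on log2(RPKM + 0.1) (-0.12, -0.11, -0.12 and -0.03). SLC16A1, GPI and PFKP did so with upper-quartile scaling (-0.03, -0.02 and -0.03), and SLC16A1 and PFKP with at least 10 counts in every library (-0.0026 and -0.00015). Leaving out each library in turn, values ran from -0.0092 to 0.03 for SLC16A1 and -0.03 to 0.06 for GPI. They ran from -0.03 to 0.05 for PFKP and -0.02 to 0.18 for BNIP3. In those fits 29 to 31 of the 36 members were called, and 10138 to 10263 of the 18551 to 18655 genes tested. DESeq2 called 9081 genes and 29 members. The same replicate numbers did not pair the libraries (correlations of deviations 0.0061, -0.028 and 0.00011), and a replicate block gave 10810 genes and 31 members. For genes with few counts, such as EPAS1 and BNIP3, depth limits what can be seen.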
